A study of Mus musculus with 18 samples.

Results

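DNA methylation in the mouse heart was compared between late and early myocardial infarction (MI), in which heart muscle dies after its blood supply is blocked. The late group held the 6 libraries taken 24 h and 72 h after the blockage, and the early group the 9 libraries taken at 10 min, 1 h and 6 h, together 15 of the 18 libraries of the study; they were chosen by their labelled time alone. All came from male C57BL/6JR mice aged 12 weeks, 3 mice at each time, anaesthetised with sodium pentobarbital, intubated and operated on to tie the left anterior descending coronary artery. The remaining 3 libraries came from sham mice, which had the operation with the suture passed and not tied; they entered no test and are given as a description. The labels name the source as myocardial tissue and the cell type as cardiomyocytes, and describe no isolation of cells; peak lists of DNA cannot be set against marker expression, so this label was not checked. The labelled pentobarbital dose is 50 to 57 mg/kg in the early and 58 to 63 mg/kg in the late libraries, against 50 mg/kg in the description of the experiment, so if the labels are taken as written, dose and time cannot be told apart.

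Methyl groups on cytosine, placed mostly where a cytosine precedes a guanine (CpG), are laid down and copied by DNA methyltransferases and are known for their part in keeping promoters and transposons silent. In adult heart muscle the pattern is cell type-specific, so that tissue DNA carries the sum of the patterns of muscle, vessel, connective tissue and blood cells. Methylated DNA immunoprecipitation sequencing (MeDIP-seq) pulls down sheared DNA with an antibody against methylated cytosine and sequences it. A peak is a stretch in which the sequenced fragments are enriched, and it gives no level of methylation. In tissue, a change in the mix of cells and a change of methylation within cells cannot be told apart. The deposited lists hold no read counts, so the depth of each library is unknown and no counting error can be given.

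Late libraries had more peaks on average than early ones, though not past the adjusted threshold. The lowest late list held 47244 peaks, the median was 49835.5 and the highest was 60653. Early lists held 34255, 44028 and 52259 in the same order. The groups overlapped, and only 2 libraries, both at 72 h, lay above the highest early library. The means were 52307 ± 6008 late and 43839 ± 5669 early (SD, n = 6 and 9), a difference of 8468 peaks. This gave an exact two-sided permutation p of 0.0158, which did not pass adjustment over the 4 library measures (adjusted p = 0.0631). It did without the 10 min replicate 1 library (adjusted permutation p = 0.0173) or the 6 h replicate 2 library (adjusted permutation p = 0.0333). The 24 h libraries alone differed from the early ones by 4690 peaks (exact permutation p = 0.20) and the 72 h libraries alone by 12245 (exact permutation p = 0.0136, adjusted p = 0.0545). Sham libraries, in no test, had 51287 ± 8068 peaks (SD, n = 3), from 44328 to 60130, a mean close to the late one.

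The peaks were also counted by their deposited score, a value of the authors for each peak that started at 50 in every list. Late libraries had 1.11 times as many peaks as early ones between scores of 50 and 60, 1.19 times as many between 60 and 100, and 1.33 times as many from 100 upward. The exact permutation p-values were 0.0408, 0.0130 and 0.0322, with adjusted values of 0.0408, 0.0390 and 0.0408 over the 3 ranges, which were chosen after the data had been seen. Adjusted over the 4 library measures instead, the number of peaks at 100 or more did not pass (adjusted permutation p = 0.119). The number of peaks at 100 or more was 11890 ± 3065 late and 8956 ± 1753 early (SD, n = 6 and 9). The 24 h libraries had 1.10, 1.10 and 1.12 times the early mean in the 3 ranges and the 72 h libraries 1.12, 1.27 and 1.53 times, with 9711 to 15869 peaks at 100 or more at 72 h and 8869 to 10898 at 24 h. Whether the ranges differ from each other was not tested.

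Peaks covered 54.1 ± 5.81 Mb of the genome in late and 48.5 ± 5.14 Mb in early libraries (SD, n = 6 and 9; exact permutation p = 0.0737, adjusted p = 0.147). When the 34255 top-scoring peaks of each library were used, as many as the shortest list holds, the direction turned: 37.3 ± 2.70 Mb late and 39.2 ± 2.90 Mb early (exact permutation p = 0.23). Mean peak width was 1037 ± 78.9 bases late and 1113 ± 90.7 early (exact permutation p = 0.118, adjusted p = 0.157).

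Peaks in the late libraries lay slightly more often in genes or within 2000 bases of them. Gene spans were extended by 2000 bases at both ends for this measure. The share of peaks touching the span of a protein-coding gene was 48.3% at its lowest, 49.1% at the median and 51.9% at its highest in late libraries, and 46.9%, 48.3% and 49.2% in early ones. The groups overlapped, and all 3 libraries at 72 h lay above every early library. The means were 49.6% ± 1.37 and 48.1% ± 0.741 (SD, n = 6 and 9; exact permutation p = 0.0114, adjusted p = 0.0342 over 3 measures added after the data had been seen). Leaving out any of 9 libraries, all of them early or at 72 h, ended this call, with adjusted permutation p-values from 0.0540 to 0.123; the lowest difference, 0.947 points, came without the 72 h replicate 1 library. At equal peak numbers the means were 47.4% and 46.9% (exact permutation p = 0.0781). The 24 h libraries alone differed from the early ones by 0.434 percentage points (exact permutation p = 0.359) and the 72 h libraries by 2.42 points (exact permutation p = 0.00455). The 72 h libraries alone, at equal peak numbers, still differed by 1.26 points (exact permutation p = 0.00455, the smallest value 3 against 9 libraries can give), and the 24 h libraries by -0.103 points. With all peaks, sham libraries, in no test, had a share of 49.2% ± 0.940 (SD, n = 3), close to the late mean. Near gene starts the difference did not pass the test: 2.47% ± 0.0910 of late and 2.42% ± 0.0752 of early peaks lay between 2000 bases before and 500 after the listed start of a protein-coding gene (exact permutation p = 0.359).

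**Figure D1:**
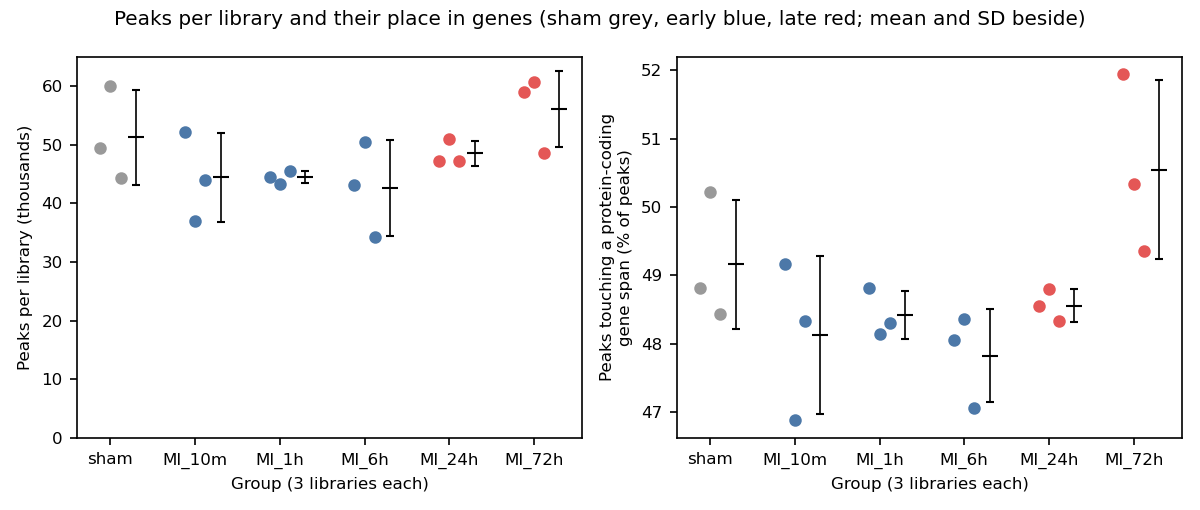
Peaks per library, in units of 1000 (left) and the percentage of peaks that touch a protein-coding gene span (right, axis not starting at 0), by group; each point is 1 library, grey for sham, blue for early and red for late, with the group mean and SD beside it (n = 3). Gene spans include 2000 bases on each side. The 3 libraries at 72 h hold the 2 longest lists of the 15 MI libraries and all lie above the early libraries on the right, while the 24 h libraries lie among them.

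Libraries of the same phase shared slightly more of their peaks. The overlap of a pair was measured as its shared peak bases over the union of its peak bases (Jaccard index), which averaged 0.369 over the 15 late pairs, 0.359 over the 36 early pairs and 0.356 over the 54 mixed pairs. Pairs within a phase exceeded mixed pairs by 0.00584 (one-sided exact permutation p = 0.0394), a small part of the range of 0.303 to 0.398 over the 105 pairs. With equal numbers of peaks the excess was 0.00523 (exact permutation p = 0.0242). It was 0.00039 without the 72 h libraries (exact permutation p = 0.45) and 0.00704 without the 24 h libraries (exact permutation p = 0.0909). Leaving out any 1 of the 6 late libraries ended the call, and without the 72 h replicate 1 library the excess was 0.00257 (exact permutation p = 0.185).

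Peaks of the 15 libraries were merged where they overlapped into 143550 regions, of which 8190 had a peak in all 15 libraries and 43830 in 1 alone. No region passed adjustment. Of 63688 regions with a peak in 3 to 12 libraries, Fisher's exact test gave 0 with an adjusted p under 0.05 and a smallest adjusted p of 0.719. The smallest p this design allows is 0.0002. For an adjusted p under 0.05 from that value alone, 255 regions would have to share it, and 11 had it. Enough regions at the next larger p-values could also bring a call, and these were too few. At an unadjusted p under 0.05, 3315 regions had a peak more often late (5.21%) and 578 less often (0.908%). Without the 6 h libraries these were 378 and 87, and without the 72 h libraries 995 and 253. The number of regions tested can change when libraries are left out, so those counts are not shares. Among the 46790 regions tested at equal peak numbers the counts were 1225 (2.62%) and 820 (1.75%), so the share of regions more often late among both went from 85.2% to 59.9%. Of the 3315 regions, 658 (19.85%) were also under 0.05 with equal numbers of peaks, and of the 578 regions 200 (34.6%) were. Over all tested regions the share was 2.88%. The equal-number lists are part of the same peaks, so this overlap is no independent support.

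**Figure D2:**
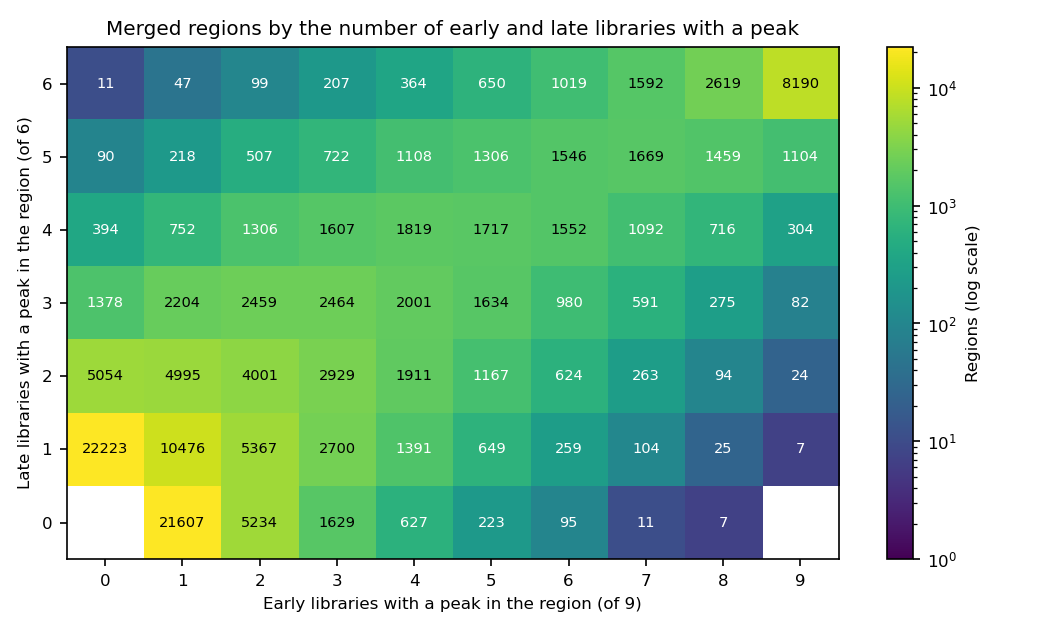
Number of merged regions for each combination of early libraries (horizontal axis, of 9) and late libraries (vertical axis, of 6) with a peak; the colour follows the number of regions on a log scale. Complete separation was found in 11 regions, in the upper left corner, and in 0 regions in the lower right corner.

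Of the regions more often late, 55.3% overlapped a protein-coding gene by 1 base or more. The share was 46.7% of those less often late and 50.5% of all tested regions. These shares are a description without a test. Regions more often and less often late had a peak in a median of 4 and 6 libraries, respectively, and all tested regions in a median of 6.

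Only 11 regions had a peak in every late and no early library, and 0 regions the reverse. The first by rank lay within Ablim1, which encodes a LIM protein that binds actin, on chromosome 19 from 57092030 to 57093197. Its late scores ran from 59.7 to 117 with a mean of 99.1 ± 20.9 (SD, n = 6), and 1 of 3 sham libraries also had a peak. Ties were broken by the p with equal numbers of peaks, here and in the opposite direction, which put this region first. At that setting it had a peak in 6 of 6 late and 0 of 9 early libraries (Fisher's exact p = 0.0002, the smallest value possible, adjusted p = 0.719 over all regions with all peaks). It was the 1 region of the 11 to separate the groups completely under both settings.

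The second lay within Kalrn, which encodes kalirin, on chromosome 16 from 33986870 to 33988042. Its late scores averaged 80.5 ± 16.3 (SD, n = 6), and with equal numbers of peaks 5 of 6 late libraries had it. The third, on chromosome 8 from 3678893 to 3680312, lies inside Trappc5, a subunit of a vesicle-tethering complex, and across an end of Fcer2a, the low-affinity IgE receptor CD23. It averaged 76.2 ± 14.95 (SD, n = 6), was found in 0 of 3 sham libraries, and kept a peak in 4 of 6 late libraries with equal numbers. The fourth was an intergenic region on chromosome 9 from 38313172 to 38314260, nearest to the pseudogene Olfr897-ps1.

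The region within Slc2a6, a glucose transporter gene, lay on chromosome 2 from 27023737 to 27024859 and averaged 69.4 ± 18.6 (SD, n = 6), also with 0 of 3 sham libraries. The regions nearest to Tlr6, a Toll-like receptor, and to Nova2, a splicing factor, and that within 4930590J08Rik each had a peak in 2 of 3 sham libraries. At equal peak numbers they were found in 4, 3 and 3 of 6 late libraries, respectively. The other 3 regions lay within Dtd1, within Lmtk3 and nearest to Gm23972. Of the 11 regions, those in Slc2a6, Dtd1 and Trappc5 and that nearest to Olfr897-ps1 had no sham peak; the others had 1 or 2.

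In the opposite direction, 7 regions had a peak in 8 of 9 early and 0 of 6 late libraries. One lay within Ddc, the decarboxylase that makes dopamine and serotonin, on chromosome 11 from 11852262 to 11853650. Its early scores averaged 69.4 and ran from 55.1 to 101, all 3 sham libraries had the peak, and with equal numbers of peaks 7 of 9 early libraries kept it. Another, on chromosome 8 from 34082616 to 34083794, was nearest to Dctn6, a subunit of the dynein partner dynactin. It had no sham peak, and with equal numbers of peaks it was again found in 7 of 9 early and 0 of 6 late libraries.

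The region within C1rl, a serine protease related to complement C1r, lay on chromosome 6 from 124506999 to 124510235. It was 3237 bases wide, and when at least 50% of it had to be covered only 3 of 9 early libraries had it. The remaining 4 were nearest to Gm25824, Mir680-3 and Gm45990 and within Epb41l4a. The region ranked eighth, within Nfatc1, a transcription factor activated by calcineurin, had a peak in 9 of 9 early and 1 of 6 late libraries. For all 8 the exact Fisher test gave an adjusted p of 0.719 or more.

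**Figure D3:**
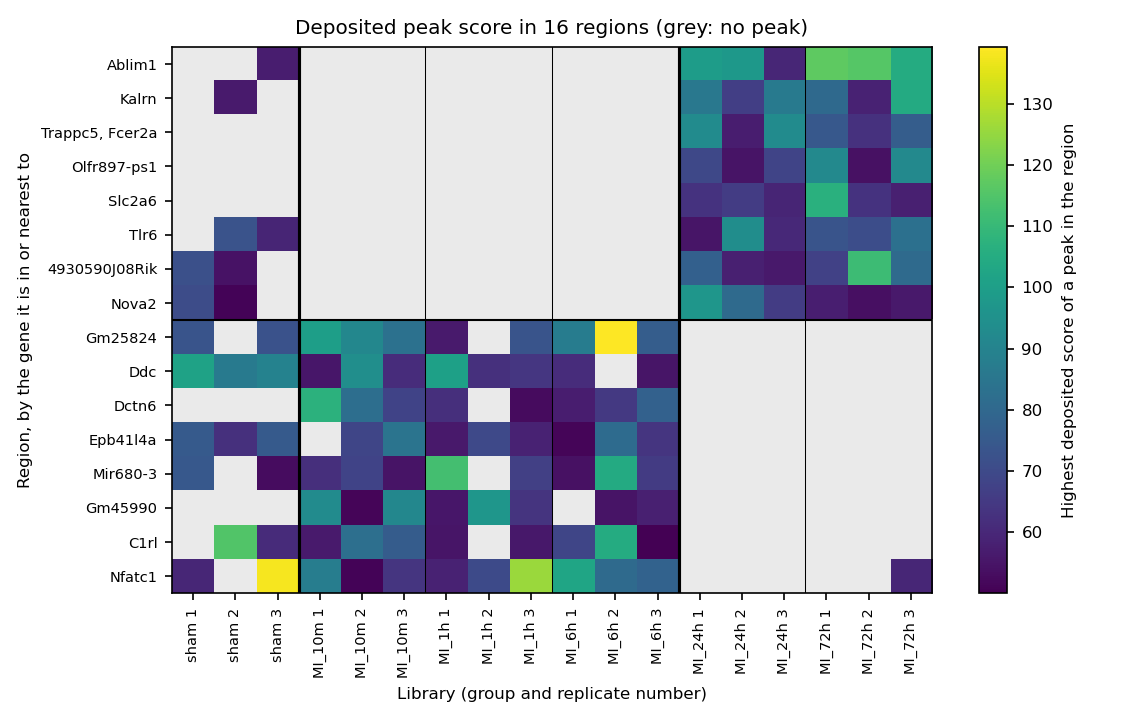
Highest deposited score of a peak in each of the 8 first-ranked regions in each direction (rows, named by the gene they lie in or nearest to) in every library (columns), with grey where there was no peak. The upper 8 regions are filled in all 6 late and no early library; sham libraries, at the left, have peaks in rows of both directions.

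Few promoters carried a peak. RefSeq lists 21262 promoters of 300 bases (250 before to 50 after the start) for 17491 protein-coding genes, and 1222 of them touched a peak in at least 1 of the 15 libraries. Those 1222 held a median of 7 CpG, against 13 over all promoters, and 27.7% against 56.7% held 10 or more. The late libraries had 427 ± 59.8 such promoters and the early ones 330 ± 37.5 (SD, n = 6 and 9), with a median of 7 to 8 CpG in every library of both groups.

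A few promoters are shown for their CpG content, with CpG in capitals, 5′ to 3′, from RefSeq on GRCm38.p6 (mm10). Casq1, which encodes a calcium-binding protein of the sarcoplasmic reticulum, was named by the rule for gene starts. Mstn encodes myostatin, a secreted inhibitor of muscle growth, Hspb3 a small heat shock protein of muscle, and Mypn myopalladin, a Z-disc protein. These 3 were chosen after their values had been seen, as genes of muscle, from 13 promoters with a peak in at least 4 late and at most 1 early library; others of the 13 had as large a gap. Mstn had 4 late and 0 early, Hspb3 5 and 1, Mypn 4 and 1, and Casq1 5 and 2, counted over the 300 bases.
Casq1 (chr1:172219846-172220145, minus strand): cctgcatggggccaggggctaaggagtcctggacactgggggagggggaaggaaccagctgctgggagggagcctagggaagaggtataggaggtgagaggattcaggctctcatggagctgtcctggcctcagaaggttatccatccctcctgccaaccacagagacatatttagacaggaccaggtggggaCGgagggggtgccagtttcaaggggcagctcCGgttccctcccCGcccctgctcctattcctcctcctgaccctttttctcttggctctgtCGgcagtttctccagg
Mstn (chr1:53061390-53061689, plus strand): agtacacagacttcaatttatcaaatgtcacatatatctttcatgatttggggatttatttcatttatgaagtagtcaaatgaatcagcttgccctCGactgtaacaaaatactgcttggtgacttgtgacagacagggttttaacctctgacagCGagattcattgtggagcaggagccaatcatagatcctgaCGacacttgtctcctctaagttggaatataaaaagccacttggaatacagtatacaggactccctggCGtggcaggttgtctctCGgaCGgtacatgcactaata
Hspb3 (chr13:113663627-113663926, minus strand): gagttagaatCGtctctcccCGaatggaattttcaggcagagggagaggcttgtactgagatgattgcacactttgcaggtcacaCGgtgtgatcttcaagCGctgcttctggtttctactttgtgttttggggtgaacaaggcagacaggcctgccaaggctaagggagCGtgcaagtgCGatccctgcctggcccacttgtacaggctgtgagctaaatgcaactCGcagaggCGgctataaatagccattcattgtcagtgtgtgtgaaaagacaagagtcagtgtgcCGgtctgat
Mypn (chr10:63203903-63204202, minus strand): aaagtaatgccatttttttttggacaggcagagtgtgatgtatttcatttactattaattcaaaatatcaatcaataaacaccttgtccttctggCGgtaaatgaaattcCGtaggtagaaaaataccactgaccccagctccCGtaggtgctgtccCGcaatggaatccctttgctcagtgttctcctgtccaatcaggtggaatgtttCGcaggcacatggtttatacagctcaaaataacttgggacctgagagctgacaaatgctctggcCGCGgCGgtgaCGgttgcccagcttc

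The 3 promoters shown for the opposite direction belong to starts named by the rule. Slc25a21, a mitochondrial carrier, and Krtap22-2, a keratin-associated protein, each had a peak over the promoter in 6 early and 0 late libraries. Evi2 had one in 7 early and 1 late library. Each had a peak in 2 of 3 sham libraries.
Slc25a21 (chr12:57197423-57197722, minus strand): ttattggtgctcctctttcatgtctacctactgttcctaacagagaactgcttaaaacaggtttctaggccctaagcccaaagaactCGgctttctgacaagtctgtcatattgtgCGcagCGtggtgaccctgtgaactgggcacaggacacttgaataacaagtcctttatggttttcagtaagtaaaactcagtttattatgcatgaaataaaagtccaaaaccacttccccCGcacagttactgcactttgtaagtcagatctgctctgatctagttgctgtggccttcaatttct
Krtap22-2 (chr16:89010710-89011009, minus strand): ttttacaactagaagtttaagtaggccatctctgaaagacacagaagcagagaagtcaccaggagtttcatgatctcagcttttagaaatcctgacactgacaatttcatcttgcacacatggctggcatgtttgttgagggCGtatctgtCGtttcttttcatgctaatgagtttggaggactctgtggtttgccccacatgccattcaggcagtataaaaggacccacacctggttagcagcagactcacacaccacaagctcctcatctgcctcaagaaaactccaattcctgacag
Evi2 (chr11:79530560-79530859, minus strand): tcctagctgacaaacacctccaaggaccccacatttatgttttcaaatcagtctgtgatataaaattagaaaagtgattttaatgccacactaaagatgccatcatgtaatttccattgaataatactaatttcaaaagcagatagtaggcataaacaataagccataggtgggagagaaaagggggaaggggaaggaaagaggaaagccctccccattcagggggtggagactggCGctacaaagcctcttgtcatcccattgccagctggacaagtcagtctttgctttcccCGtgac

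The late promoters hold 4, 6, 9 and 9 CpG in the order Casq1, Mstn, Hspb3 and Mypn, and the early ones 4, 2 and 2 in the order Slc25a21, Krtap22-2 and Evi2. All 7 lie below the median of 13 CpG over all promoters. The 13 promoters found mostly late had a median of 6 CpG, and the 14 with a peak in at least 5 early and at most 1 late library 6.5, a description without a test.

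In the wider window around gene starts, from 2000 bases before to 500 after, 1707 of 17491 genes had a peak in 3 to 12 libraries. Fisher's exact test gave 0 with an adjusted p under 0.05 and a smallest adjusted p of 0.736. At an unadjusted p under 0.05, 89 starts had a peak more often late (5.21%) and 13 less often (0.762%), and with equal numbers of peaks 27 and 23. The share more often late among both directions went from 87.25% to 54%. The number of starts tested can differ between the settings, so 27 and 23 are counts without a share. Mif, which encodes macrophage migration inhibitory factor, a cytokine, had a peak in 5 of 6 late and 0 of 9 early libraries (Fisher's exact p = 0.0020, adjusted p = 0.736). Its peak was centred at -2004 bases relative to the start, and only 2 late libraries kept it with equal numbers. Casq1, the transposase-derived Tigd4 and the lysosomal transporter gene Spns1 each had a peak in 6 late and 2 early libraries.

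Lkaaear1 had a peak in 5 late and 1 early library, and in 5 and 0 with equal numbers of peaks (Fisher's exact p = 0.0020). In the opposite direction, Slc25a21, Krtap22-2 and Smc1b, a meiotic cohesin subunit, had a peak in 0 of 6 late and 6 of 9 early libraries, with and without equal numbers (Fisher's exact p = 0.0278). Ap5z1, an adaptor protein subunit, and Evi2 had 1 of 6 and 7 of 9.

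The coverage of a gene was taken as the percentage covered by peaks of its span extended by 2000 bases at both ends. Of 14159 protein-coding genes with a peak in at least 3 libraries, 24 were higher late at an adjusted p under 0.05 (limma; 0.17%) and 0 were lower (0%). The smallest adjusted p of a lower gene was 0.143. At an unadjusted p under 0.05, 1155 genes were higher (8.16%) and 141 lower (0.996%). No gene, at equal peak numbers, passed limma's adjusted threshold (smallest adjusted p = 0.0813 of 12468 genes), and 406 were higher (3.26%) and 358 lower (2.87%) before adjustment. The share of higher genes among both thus went from 89.1% to 53.1%. It was 67.2% when each value was divided by the library's coverage of all gene spans, where 19 of the 24 genes passed limma's threshold.

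The 24 calls use limma's model of the spread. An exact permutation test per gene, with 1185 genes higher and 150 lower before adjustment, called 0 after it, and the 24 genes then had adjusted p-values from 0.189 to 0.318. For a call from the smallest p of that test alone, 57 genes would have to share it, and 15 did. Enough genes at the next larger p-values could also bring a call, and these were too few. The 24 calls were thus not repeated by that test, whose p-values come in coarse steps. Of the 24, 12 had no peak in any early library, so their early spread is 0. These 12 met the filter of at least 3 libraries through late peaks alone, which limits what limma's p-values for them can show. Both times differ in their part: without the 24 h libraries limma called 149 genes higher and 1 lower, with 21 of the 24 among them, and without the 72 h libraries 16 higher, with 7 of the 24. Leaving out 1 library at 24 h gave 53, 39 and 38 genes higher for replicates 1, 2 and 3.

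Sham libraries did not side with the early group at all of these genes. Of the 24 genes, 6 had no sham peak, 15 had one in 1 or 2 sham libraries and 3 (Adat3, Scamp4 and Mcm3) in all 3.

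The gene with the largest moderated t was Trappc5, with 0% of its span under peaks in all 9 early libraries and 9.63% at the lowest, 10.9% at the median and 13.3% at the highest late library. The groups did not overlap, and sham libraries were at 0%. The difference was 11.4 ± 0.620 percentage points (SE; adjusted p = 9.47e-08 by limma, 0.189 by permutation, 0.343 by limma with equal numbers of peaks). Its peak is the region on chromosome 8 named above, which also gives Fcer2a its place among the 24, with 7.34 ± 1.20 points (SE; limma adjusted p = 0.0166).

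Slc2a6 was also at 0% in all 9 early and 3 sham libraries and lay between 7.61% and 10.5% late, a difference of 8.36 ± 0.486 points (SE; limma adjusted p = 9.83e-08). Gm3336 was at 0% in all early libraries and between 9.54% and 14.5% late, from 2 separate peaks found in 4 and 2 late libraries, the first shared with the flank or body of Iqcn and the second with Pde4c. Prss40, a serine protease gene, had between 2.26% and 5.74% late and 0% early, again from 2 peaks, 1 of them across its start end.

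P2ry1 encodes a receptor for extracellular ADP. Its late values ran from 7.78% to 11.6% with a median of 8.81%, and 1 early library, 6 h replicate 1, had 7.79% while the other early libraries were at 0%. The difference was 8.42 ± 1.16 points (SE; limma adjusted p = 0.00582), and with equal numbers of peaks limma's adjusted p was 0.0813, the lowest of any gene. A single peak centred 1318 bases past the start gave this value, and no sham library had it. Slc50a1, a sugar transporter gene, and Dpm3, a subunit of dolichol-phosphate mannose synthase, share 1 peak, found in 6 late, 1 early and 1 sham library. Their differences were 11.4 ± 1.58 and 4.06 ± 0.657 points (SE), with limma adjusted p-values of 0.00582 and 0.0144, and 0.0813 each with equal numbers.

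Wnt6, a secreted Wnt ligand, had between 2.26% and 4.23% late, and among early libraries only 6 h replicate 2 had a value above 0, 1.85%. The difference was 2.72 ± 0.383 points (SE; limma adjusted p = 0.00582, and 0.0942 with equal numbers). A peak centred 11113 bases past its start was found in 5 late, 0 early and 0 sham libraries. Adat3, the partner subunit of a tRNA deaminase, and Scamp4, a secretory carrier membrane protein, overlap and share their peaks. Both were at 0% in all 9 early libraries, but sham libraries had 11.5% ± 1.11 and 5.98% ± 0.577 (SD, n = 3), close to the late means of 9.36% ± 4.09 and 4.86% ± 2.13 (SD, n = 6).

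Mcm3, a subunit of the replication helicase, was likewise at 7.07% ± 2.33 late (SD, n = 6) and 7.31% ± 4.66 in sham (SD, n = 3), with 1 early library above 0. Laptm5, a lysosomal protein of blood cells, had 3.61% ± 0.746 late (SD, n = 6) and 3.26% ± 2.82 in sham (SD, n = 3). Other genes among the 24 were Hyal2, a hyaluronidase, Rit1, a Ras-like GTPase, Rbm15, an RNA-binding protein, Otulin, a deubiquitinase of linear chains, and Pomk, a kinase that acts on the sugar chain of dystroglycan. The first 4 were at 0% in all early libraries and had a peak in 5 of 6 late ones; Pomk had one in 6 late and 2 early libraries. The rest were Lad1, Gm10654, Mif, Gm46382, Serhl and Hnrnpa1.

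Genes at the lower end did not pass limma's threshold. C1rl had 0% in all 6 late libraries and 7.30% ± 4.22 early (SD, n = 9), with 8 of 9 early libraries above 0 (difference -7.30 ± 1.67 points, SE; limma adjusted p = 0.143). Edn2 encodes endothelin-2, a peptide that narrows vessels. It had a value above 0 in 1 of 6 late and 8 of 9 early libraries (difference -8.62 ± 2.13 points, SE; limma adjusted p = 0.186), and no sham library had a peak. Zfp383, a zinc finger gene, had the same counts with 1 sham library.

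Des encodes desmin, the intermediate filament protein of muscle, and had 0% in all late libraries and up to 10.0% early, with 6 of 9 libraries above 0 (difference -5.58 ± 1.70 points, SE; limma adjusted p = 0.34). Evi2a and Evi2 share 1 peak, with 1 of 6 late and 7 of 9 early libraries. Etv3, an ETS repressor, was above 0 in all 9 early and 2 of 6 late libraries, and Slco5a1, a transporter gene, in 9 and 3. Krtap22-2 and Mroh6 had 6 and 8 early and 0 and 2 late libraries above 0.

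**Figure D4:**
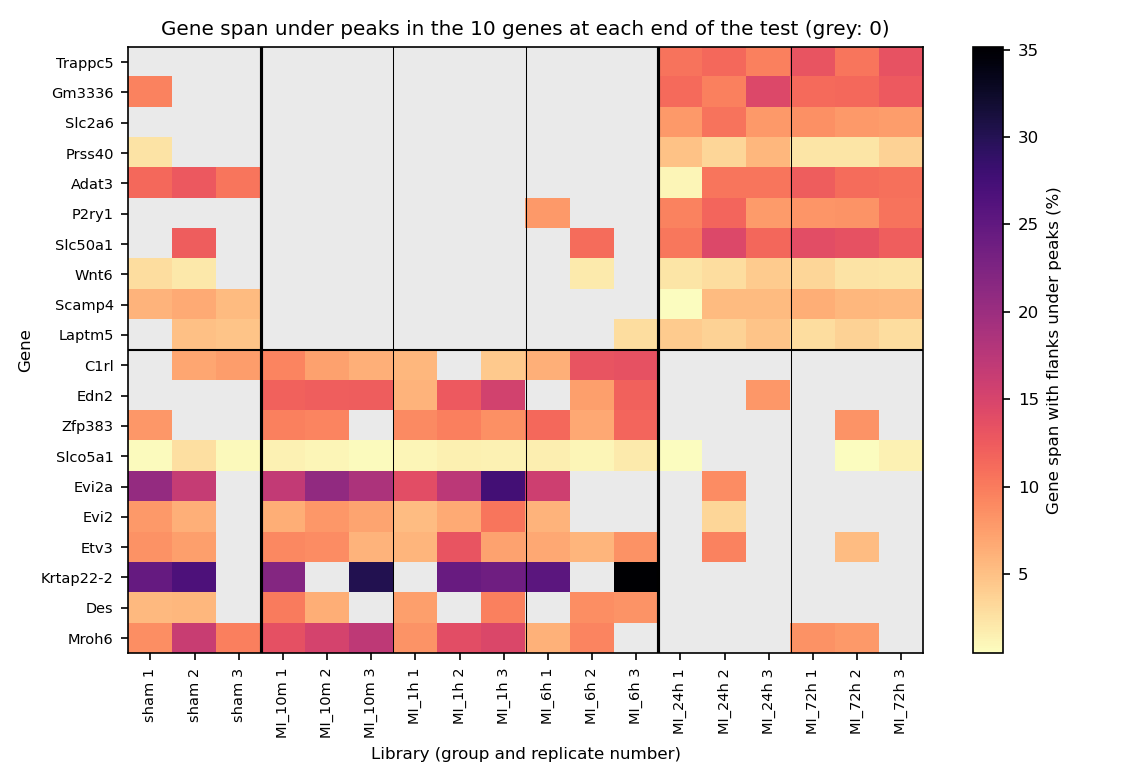
Coverage by peaks (percentage of the span extended by 2000 bases at both ends) for the 10 genes with the highest and the 10 with the lowest moderated t (rows) in every library (columns), grey for 0. The upper genes are filled across the 24 h and 72 h columns and grey in all or all but 1 of the early columns; Adat3, Scamp4 and others are filled in sham as well.

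No member of 13 gene lists passed limma's adjusted threshold, so the lists are described by counts and medians beside all genes. Over the 14159 genes the median difference was 0.39 percentage points, 66.7% of genes were above 0, and with equal numbers of peaks the median was -0.06 and 46.3% were above 0. Of 24 contractile genes, 21 were tested, 16 were above 0 and the median was 1.31. At an unadjusted p under 0.05, 7 were higher and 0 lower, beside 8.16% and 0.996% of all genes. With equal numbers of peaks 15 were tested, the median was 0.19, and 0 were higher and 1 lower, beside 3.26% and 2.87% of all genes. The same shares of all genes, at each setting, stand beside the counts of every list below.

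Tnnt2, cardiac troponin T, had between 3.45% and 10.5% late with a median of 5.38%, and 0% in 6 of 9 early libraries with a highest of 6.68%. The difference was 4.34 ± 1.36 points (SE; limma adjusted p = 0.36). Csrp3, the Z-disc protein MLP, had a peak in 5 of 6 late and 1 of 9 early libraries and differed by 3.62 ± 0.856 points (SE; limma adjusted p = 0.164). Myh7 and Tpm1, myosin heavy chain beta and a tropomyosin, were at the other end of the list with -0.79 and -1.89 points (limma adjusted p = 0.902 and 0.618). Myh6, the main myosin heavy chain of the adult mouse ventricle, had a peak in 4 of 6 late and 1 of 9 early libraries (difference 2.37 ± 0.939 points, SE; limma adjusted p = 0.418).

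Tnni3, cardiac troponin I, had a peak in 1 late, 1 early and 1 sham library, upstream of its start, and was not tested. Ptprc, the pan-leukocyte antigen CD45, had one in 1 early library alone.

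Of 20 calcium and electrical genes, 17 were tested and 14 were above 0, with a median of 0.44 points and 4 higher and 0 lower before adjustment. With equal numbers of peaks the median was -0.02 over 16 genes, with 1 higher and 1 lower before adjustment. Cacna1c, the pore subunit of the cardiac L-type calcium channel, had between 2.28% and 3.37% late and between 1.19% and 2.03% early. The groups did not overlap, and sham libraries had 2.40% ± 0.358 (SD, n = 3). The difference of 1.00 ± 0.331 points (SE) had a limma adjusted p of 0.368, a permutation adjusted p of 0.189, and with equal numbers of peaks a limma adjusted p of 0.97. Gja1, connexin 43 of the gap junctions, had between 5.69% and 15.2% late and 0% to 8.46% early, with a median of 9.54% and 0%. Its difference was 7.02 ± 1.70 points (SE; limma adjusted p = 0.186). Kcnd2 and Hcn4, at the lower end of the list, differed by -0.16 and -0.63 points (limma adjusted p = 0.851 and 0.840).

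Of 24 fuel and mitochondrial genes, 17 were tested and 14 were above 0, with a median of 1.41 points, 4 higher and 0 lower before adjustment. With equal numbers the median was -0.13 over 13 genes, with 2 higher and 0 lower before adjustment. Cox6a2, the muscle form of a cytochrome oxidase subunit, had a peak in 5 of 6 late, 2 of 9 early and 0 of 3 sham libraries and differed by 10.5 ± 3.42 points (SE; limma adjusted p = 0.368). Ppara, a receptor that switches on fatty acid oxidation, differed by 2.43 ± 0.818 points (SE; limma adjusted p = 0.368). Ppargc1a and Lpl, at the lower end, differed by -0.17 and -0.54 points (limma adjusted p = 0.883 and 0.826). Of 22 hypoxia and glycolysis genes, 17 were tested, 13 were above 0 and the median was 0.69, with 3 higher and 0 lower before adjustment. At equal peak numbers their median was 0.04 over 17 genes, with 1 higher and 1 lower. Egln1, an oxygen sensor that marks HIF for breakdown, differed by 5.50 ± 1.40 points (SE; limma adjusted p = 0.192), and Hif1a by 1.56 ± 0.452 (SE; limma adjusted p = 0.284). Bnip3 and Hk2, at the lower end, differed by -1.29 and -1.46 points (limma adjusted p = 0.797 and 0.713).

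The inflammation list had the lowest median, -0.82 points, and was below 0 with equal numbers as well (-0.65). Of 25 genes 15 were tested and 7 were above 0, with 1 higher and 0 lower before adjustment. With equal numbers 10 were tested, with 0 higher and 2 lower, beside 3.26% and 2.87% of all genes. Cxcl10, a chemokine induced by interferon, had a peak in 3 of 6 late libraries, all at 72 h, and in 0 of 9 early ones. Ccl3, a chemokine for monocytes, had one in 0 late and 3 early libraries. Il1a, an alarm cytokine, differed by -2.43 ± 1.34 points (SE; limma adjusted p = 0.625). Of 25 matrix and fibrosis genes, 20 were tested and 11 were above 0, with a median of 0.34 and 1 higher and 0 lower before adjustment. At equal peak numbers their median was -0.35 over 18 genes, with 0 higher and 0 lower. Col1a1, the main collagen chain of scar, was covered in every late and early library, at 9.01% ± 0.574 and 10.2% ± 1.70 (SD, n = 6 and 9; limma adjusted p = 0.772).

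Of the lists for other cell types, leukocyte markers had 10 of 21 genes tested, 5 above 0 and a median of 0.10 points, with 1 higher and 0 lower before adjustment. Fibroblast markers had 8 of 12 tested, 6 above 0 and a median of 0.96, with 1 higher and 0 lower. Endothelial markers had 13 of 15 tested, 11 above 0 and a median of 0.60, with 2 higher and 0 lower. Nos3, endothelial nitric oxide synthase, differed by 2.61 ± 0.772 points (SE, limma adjusted p = 0.309). Its coverage was 4.29% ± 0.185 in sham (SD, n = 3), above the late 3.28% ± 1.73 (SD, n = 6). Kdr and Tie1, at the lower end of the endothelial list, differed by -0.105 and -1.04 points (limma adjusted p = 0.988 and 0.809). Smooth muscle and pericyte markers had 7 of 10 tested, 4 above 0 and a median of 0.27, with 1 higher (Notch3) and 1 lower (Des). At equal peak numbers the medians were -0.47, 0.67, 0.22 and 0.27 in the order leukocyte, fibroblast, endothelial and smooth muscle. Of the 8, 8, 12 and 7 genes then tested, 1 endothelial gene was higher and 0 genes were lower before adjustment. Methylation at a marker gene gives no count of cells, and the part of a changing mix of cells was not tested.

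Genes of the methylation machinery had 13 of 18 tested, 9 above 0 and 0 in either direction before adjustment; Dnmt1, which copies methylation at replication, differed by 1.62 ± 1.14 points and Dnmt3a, which sets it anew, by -0.58 ± 0.551 (SE; limma adjusted p = 0.714 and 0.804). Cardiac transcription factors had 15 of 20 tested, 10 above 0 and 2 higher and 0 lower before adjustment. Gata4 had a peak in 3 of 6 late libraries, all at 72 h, and in 0 of 9 early ones. Mef2c and Zfpm2, at the lower end, differed by -0.29 and -0.14 points (limma adjusted p = 0.847 and 0.855). Stress response genes had 9 of 18 tested and 6 above 0, with 0 in either direction before adjustment. Their median was 1.57 points. With equal numbers of peaks it was 2.23 over 7 genes, of which 0 were higher and 1 lower before adjustment. At that setting the methylation genes had a median of -0.25 over 12 genes and the transcription factors -0.05 over 13. Neither of those lists then had a gene in either direction before adjustment.

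**Figure D5:**
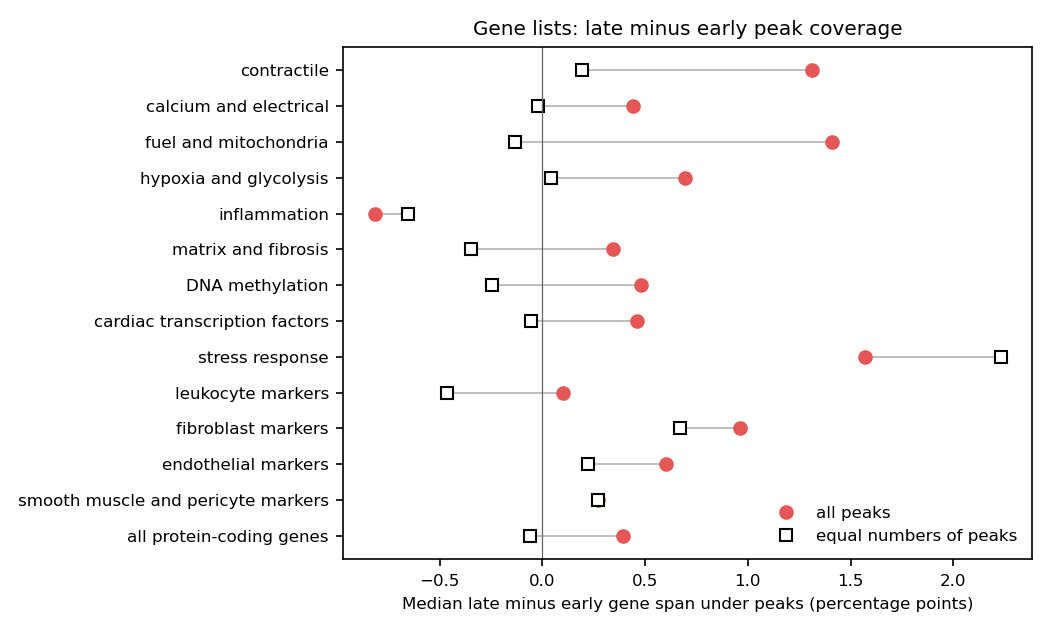
Median over the tested genes of each list of the late minus early difference in the percentage of the gene span under peaks, with all peaks (red circles) and with equal numbers of top-scoring peaks (open squares); the last row is all protein-coding genes. Medians of most lists lie to the right of 0 with all peaks and move toward or past 0 with equal numbers, as the median of all genes does from 0.39 to -0.06.

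The share of peaks on each chromosome did not pass adjustment. Of 21 chromosomes, 0 had an adjusted p under 0.05 by exact permutation, the smallest adjusted p was 0.168, and 5 (chromosomes 12, 13, 14, 17 and 19) had an unadjusted p under 0.05. Without the 24 h replicate 3 library 3 chromosomes passed. On chromosome 12 the share was 4.38% ± 0.0661 late and 4.49% ± 0.0746 early (SD, n = 6 and 9; exact permutation p = 0.0104). At equal peak numbers its exact permutation p was 0.044. Chromosomes 13, 14, 17 and 19 then had exact permutation p-values of 0.31, 0.10, 0.33 and 0.56. The smallest was then on chromosome 10 (exact permutation p = 0.0056, adjusted p = 0.1175), which had 0.168 with all peaks.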

How the data were processed

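The deposited peak lists, 1 per library, have 5 columns (chromosome, start, end, name, score). Peaks were called per library; the submitters' processing notes name Bowtie2, MACS2 and build mm10, without versions or roles, and the use of an input library is not given in the sources used here. The score is the authors' deposited value for each peak, its scale is not stated, and it was used to rank and filter peaks and to describe regions.

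Peaks of the 15 libraries overlapping by 1 base were merged, and regions and gene starts with a peak in 3 to 12 libraries were tested by Fisher's exact test (two-sided). Gene coverage was fitted with limma 3.58.1 (R 4.3.3; eBayes with trend and robust) on percentages of the span with 2000 bases on each side, for protein-coding genes with a peak in at least 3 libraries. Library values were compared by exact permutation over 5005 assignments (smallest p = 0.0002). Adjustment was by Benjamini-Hochberg over all features of a test. Genes, positions and promoters came from RefSeq on GRCm38.p6 (the patch release of mm10). Gene starts were used for 17491 of 21883 protein-coding genes, those with a listed start; both ends of the others were added as an alternative after the data had been seen. Positions are counted from 1. Tests were checked on simulated data.

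Named items were the 8 regions in each direction with the smallest Fisher p (ties by the p with equal numbers of peaks, by the p with 50% covered, by score, by position), the 10 genes in each direction by moderated t, 5 gene starts in each direction, the 2 genes at each end of every list, and Tnni3, Myh6 and Ptprc. All other calls of limma are also named. The comparison, the lists and the rules were chosen with earlier results of these data known. Alternatives were equal numbers of peaks, scores of at least 100, each time or library left out, the replicate number as a block, and other overlaps, windows, scales and filters.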

Additional observations from a re-analysis of the deposited data

Results flagged for a closer look

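No library measure had a library far from the others of its phase. For the gene coverages named above, the highest or lowest of the 6 late or 9 early libraries was compared with its nearest neighbour, and a gap taking more of the range than Dixon's limit at 95% allows was noted. Chance alone gives such a gap in about 1 of 20 groups of continuous values, and when all other libraries are at 0 any peak gives it.

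A single late library had a peak, with the others at 0, in 8 genes: Edn2 8.02% (24 h replicate 3), Zfp383 8.19% (72 h replicate 2), Evi2a 8.79% (24 h replicate 2), Evi2 3.34% (24 h replicate 2), Tpm1 2.69% (24 h replicate 1), Lpl 1.80% (72 h replicate 1), Tie1 4.39% (72 h replicate 1), Tnni3 13.2% (24 h replicate 1). A single late library stood apart at 0 for Rit1 (24 h replicate 2), Gm10654 (24 h replicate 2), Hyal2 (24 h replicate 1), Mif (24 h replicate 3), Fos (72 h replicate 3), Cd8a (24 h replicate 3). Other late libraries that stood apart were at Slc2a6 10.5% (24 h replicate 2), Adat3 1.13% (24 h replicate 1), Scamp4 0.574% (24 h replicate 1), Cspg4 5.88% (24 h replicate 3).

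A single early library had a peak, with the others at 0, in 13 genes: P2ry1 7.79% (6 h replicate 1), Slc50a1 11.1% (6 h replicate 2), Wnt6 1.85% (6 h replicate 2), Laptm5 2.81% (6 h replicate 3), Mcm3 4.65% (1 h replicate 2), Lad1 5.36% (1 h replicate 2), Dpm3 4.55% (6 h replicate 2), Gm46382 7.03% (1 h replicate 3), Csrp3 2.85% (10 min replicate 1), Hif1a 1.38% (1 h replicate 3), Myh6 4.48% (6 h replicate 2), Tnni3 12.8% (1 h replicate 1), Ptprc 0.726% (1 h replicate 1). A single early library stood apart at 0 for Zfp383 (10 min replicate 3), Egr1 (10 min replicate 2), Myc (10 min replicate 3), Lum (6 h replicate 3). Other early libraries that stood apart were at Etv3 13.2% (1 h replicate 2), Cox6a2 17.4% (6 h replicate 2), Ppargc1a 1.88% (6 h replicate 2), Egln1 5.04% (10 min replicate 1), Col1a1 14.7% (1 h replicate 2).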

How the results depend on the processing

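Equal numbers of top-scoring peaks had the widest effect. They turned covered length to -1.87 Mb (also without the 72 h or the 24 h libraries, -1.87 each) and gene span under peaks from 0.313 to -0.0552 percentage points (-0.0802 and -0.0302 in the same order). They brought the share of peaks in gene spans to 0.578 points, and to -0.103 without the 72 h libraries. The genes called higher went from 24 to 0, and to 8 without the 72 h libraries, where 1 was lower. Of the 24 genes, only 18 could be tested with equal numbers, 7 without the 72 h libraries and 8 without the 24 h libraries. The similarity excess was then 0.00295 without the 72 h and 0.00662 without the 24 h libraries. An equal number of peaks also removes a true difference in number, and which applies was not tested. Without the 72 h libraries the share near gene starts was -0.0188 points (-0.0532 with equal numbers), the share in gene spans 0.434 and the similarity excess 0.00039. Without the 24 h libraries that excess was 0.00704, and 149 genes were higher and 1 lower. Without the 6 h libraries the share in gene spans was 1.28 points (adjusted permutation p = 0.0974), and 3 genes were lower. Scores of at least 100 gave 5 genes higher, none of them among the 24, of which 0 had enough such peaks to be tested. The exact permutation test gave 0, and log2(percentage + 1) gave 1 lower.

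Leaving out 1 library moved the difference in peak number between 6799 and 9520, the share in gene spans between 0.947 and 1.67 points, and the similarity excess between 0.00257 and 0.00779. The genes higher lay between 17 and 53 and those lower between 0 and 2 (2 without 72 h replicate 2, and 1 without 10 min replicate 3, 1 h replicate 2, 6 h replicate 1 or 24 h replicate 2). Chromosomes past the threshold numbered 0 to 3, with 3 without 24 h replicate 3. Regions and gene starts past the adjusted threshold numbered 0 under every alternative run. This says little of stability, since Fisher's p takes few values here. For a call from the smallest p that all 15 libraries allow, 255 regions or 7 starts would have to share it. It was found in 11 and 0, and too few lay at the next larger values.

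Counts before adjustment moved more (main 3315 and 578 regions, 1155 and 141 genes, 89 and 13 gene starts, higher and lower in that order). Leaving out 1 library gave 1275 to 2549 and 263 to 346 regions, 886 to 1362 and 113 to 168 genes, and 32 to 73 and 4 to 10 starts; fewer libraries also allow fewer values of Fisher's p. Scores of at least 100 gave 843 and 81 regions, 499 and 25 genes, and 22 and 0 starts. Without the 72 h libraries there were 995 and 253, 524 and 165, and 21 and 3; without the 24 h libraries 1876 and 168, 1580 and 81, and 51 and 6; and without the 6 h libraries 378 and 87 regions and 9 and 2 starts. Equal numbers of peaks gave 1225 and 820, 406 and 358, and 27 and 23, then 511 and 299, 318 and 247, and 7 and 7 without the 72 h libraries, and 600 and 341, 503 and 230, and 17 and 6 without the 24 h libraries. Scaled genes numbered 704 and 344, starts in the window of 500 bases 46 and 6, and starts with both gene ends 132 and 24. The number of features tested can change with the setting. With equal numbers of peaks it was 46790 regions and 12468 genes, against 63688 and 14159 in the main setting. These counts are therefore not shares and cannot be set directly beside the main ones. The cause was not tested for any of these.

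Replicate numbers did not pair the libraries: over 30 pairs with the same number the correlation of their deviations lay between -0.0568 and 0.0782, and 6 of 15 libraries correlated best with their own number. With the replicate number as a block limma called 23 genes higher and 0 lower, all 23 among the 24, and the difference in peak number had an adjusted permutation p of 0.076. Unadjusted counts were then 2206 and 320 regions and 62 and 6 gene starts.

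Among the named genes, none called by limma turned where it could be tested, except Serhl. It was at -1.49 points with equal numbers of peaks and without the 24 h libraries, where 8 of the 24 genes were tested. List members that turned, none past a threshold, were as follows. Scores of at least 100 gave Kcnd2 0.16, Hcn4 0.33, Ppargc1a 0.0150, Col1a1 3.13, Zfpm2 0.11 and Mef2c 0.26. Equal numbers gave Mmp9 -1.49, and without the 72 h libraries Mmp9 -1.001, Cacna1c -0.0177, Kcnd2 0.0273 and Cox6a2 -0.64. Equal numbers without the 24 h libraries gave Mmp9 -1.99, Dnmt3b -0.0150, Mef2c 0.12, Cd8a 2.75 and Lum 0.18. Without the 72 h libraries Tgfb3 was -0.63 and Fos 0.55. Without the 24 h libraries Gsn was 0.89, Lum 0.18 and Kdr 1.21, and without flanks Gsn was 0.0578. Leaving out 1 library, Mbd3 lay between -3.02 and 0.0279, Fos between -3.69 and 0.0776, Cd8a between -3.93 and 1.16, Gsn between -0.41 and 0.41 and Kdr between -1.03 and 0.53.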
